A study of Mus musculus with 3 samples.

Results

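AP-1 is a family of dimeric transcription factors that carry signals from the cell surface into gene transcription, and its genes were read here in thymocytes, the T cell precursors that mature in the thymus. The 10 genes are the FOS family (Fos, Fosb, Fosl1 and Fosl2), the JUN family (Jun, Junb and Jund), the BATF factors Batf and Batf3, and Atf3. They were found by exact symbol among the probe sets whose platform annotation gives a single gene. All 10 were found among 19938 named genes, and each had 1 probe set, so that no averaging over probe sets entered their values. The samples were thymocytes of 3 wild-type (wt) mice, numbered 92, 103 and 106 in the labels, on a genetic background mixed from FVB and C57BL6. They were read on Affymetrix mouse gene arrays, and the lymphomas of the study were not analysed here, so there was 1 group and no comparison between groups. The labels give no age, sex, treatment or transgene, record 3 as the RNA integrity number of all samples, and carry a T cell lymphoma entry under disease state although title and genotype read wt.

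AP-1 proteins pair through a leucine zipper and bind DNA through the basic region next to it. FOS proteins need a JUN partner, while JUN proteins also pair with each other. Fos, Fosb, Jun, Junb and Atf3 are immediate early genes, transcribed within minutes of T cell receptor, growth factor or stress signals through MAP kinases, and their mRNAs are short-lived. In T cells AP-1 binds beside NFAT at cytokine genes, and BATF factors, which lack a transactivation domain, pair with JUN proteins and act with IRF4 or IRF8.

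The arrays had the same centre, with medians of 6.70 (mouse 92), 6.71 (mouse 103) and 6.72 (mouse 106) over all probe sets, in log2 units as are all levels given here. Of the 14 thymocyte markers listed, 11 were measured and all 11 were above background, with Satb1 at 13.74, 13.62 and 13.73 and Rag1 at 13.81, 13.38 and 13.58. Markers of blood cells other than thymocytes mostly read lowest in mouse 92. All 11 neutrophil genes tested were lowest in mouse 92 and highest in mouse 103. Of these, 7 were above background on all arrays, and the rest were above it on only some. Those could enter the test through the mice where they were high. The mean over all 12 neutrophil genes, also those not above background, was 5.96, 7.70 and 7.36 in mice 92, 103 and 106. Xist, the RNA of the inactive X chromosome, was at 5.30 in mouse 92, against 11.85 and 11.67 in mice 103 and 106. A difference in sex between mouse 92 and the others, which the labels do not record, cannot be told apart from other differences of mouse 92. The array identifiers of mice 92 and 106 share 30 of 32 leading digits, and that of mouse 103 shares 9 with either; the labels do not say what the digits mean.

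Of the 10 AP-1 and BATF genes, 8 were above background on each of the 3 arrays, and Fosl1 and Atf3 were above it on none. The background was set on each array as the 95th percentile of 1207 chemosensory receptor genes of the nose (the olfactory, vomeronasal and trace amine families), and lay between 5.91 (mouse 92) and 6.10 (mouse 103). By the same rule 61.8% of all named genes were above background, so most genes on the array pass and 8 of 10 is read against that share. With the 99th percentile as threshold, Fos, Fosb and Jun were no longer above it on every array, which left 5 of 10, beside 46.8% of all named genes. With the 90th percentile Atf3 was above it too, which made 9 of 10, beside 69.3%. Jund stood well clear of the threshold, by 3.66 on average. The other genes above it exceeded it by between 0.59 (Fosb) and 1.41 (Batf3) on average. Probes differ in affinity, so these distances do not rank the genes by transcript number. In whole thymocyte samples, fewer cells with a transcript and less transcript per cell cannot be told apart.

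**Figure D1:**
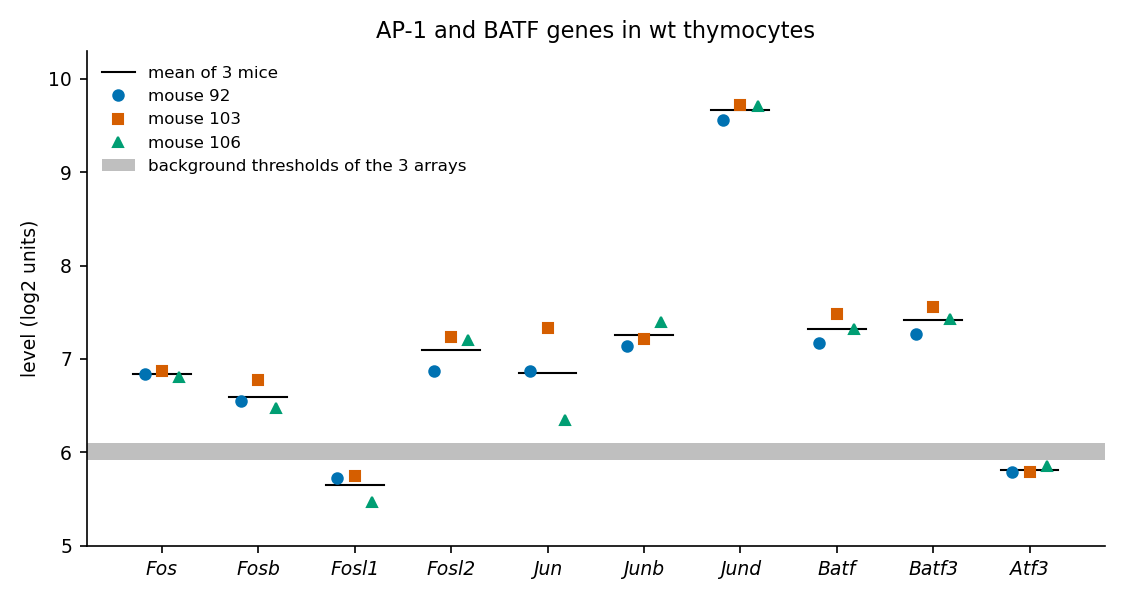
Level of each AP-1 and BATF gene (log2 units, vertical axis) on the array of each wt mouse, with the mean of the 3 mice as a bar and the background thresholds of the arrays, 5.91 to 6.10, as a grey band. Jund lies more than 3 log2 units above the band, Fosl1 and Atf3 lie below it, and the points of Jun are the farthest apart.

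Among the FOS genes, Fos, the founding member and the usual readout of recent signalling, read 6.84, 6.87 and 6.80 in mice 92, 103 and 106, with a mean of 6.84 ± 0.03 (SD, n = 3). The 3 mice lay within 0.06 of each other, the narrowest range of the 10 genes. Fos exceeded the threshold by 0.92, 0.77 and 0.80 on the arrays of mice 92, 103 and 106, and between 98.6% and 99.3% of the nasal receptor genes read lower on the same array. The stretch from 250 bases before to 50 bases after the annotated start of Fos is shown because Fos had the most even level between mice of the 10 genes.
Fos (chr12:85473640-85473939, plus strand, GRCm38.p6): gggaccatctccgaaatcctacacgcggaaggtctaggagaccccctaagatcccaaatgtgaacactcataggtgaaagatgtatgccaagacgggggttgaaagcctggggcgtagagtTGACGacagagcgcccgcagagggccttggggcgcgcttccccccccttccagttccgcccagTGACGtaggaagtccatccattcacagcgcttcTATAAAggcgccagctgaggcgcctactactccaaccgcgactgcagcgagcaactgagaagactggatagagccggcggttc
Capitals here and in the other promoters mark TGACG, which is the core of the cAMP response element (CRE), the Jun-type site TGACATCA, the TATA box TATAAA and the CCAAT box CCAAT, each on either strand. In Fos the CRE core lies at -66 to -62 and again at -129 to -125 from the start, and TATAAA lies at -33 to -28.

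Fosb, a FOS gene induced together with Fos, was at 6.55, 6.77 and 6.47 in mice 92, 103 and 106, a mean of 6.60 ± 0.15 (SD, n = 3). It was highest in mouse 103, and the difference of 0.30 between mice 103 and 106 was 1.23-fold. Fosl2, which encodes FRA2 and is held up longer after a signal than Fos, was at 6.87, 7.23 and 7.20 in the same order, a mean of 7.10 ± 0.20 (SD, n = 3). Mouse 92 was lowest, 0.36 below mouse 103 and 0.33 below mouse 106. Fosl1, which encodes FRA1, was at 5.73, 5.74 and 5.47, below the threshold on every array. Its values were higher than those of 92.4%, 90.6% and 88.8% of the nasal receptor genes, so a level of Fosl1 was not told apart from background.

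Jun showed the widest spread between mice of the 10 genes. Jun, the founding member of its family and a target of its own protein, read 7.33 in mouse 103, 6.88 in mouse 92 and 6.35 in mouse 106, a mean of 6.85 ± 0.49 (SD, n = 3). The distance of 0.98 between mice 103 and 106 corresponds to 1.97-fold, and mouse 92 lay between them, 0.45 below mouse 103 and 0.53 above mouse 106. In mouse 106 Jun was only 0.35 above the threshold, against 1.23 in mouse 103 and 0.96 in mouse 92. The SD of Jun was 3.01 times the SD that limma gives for genes of its level.
Jun (chr4:95052173-95052472, minus strand, GRCm38.p6): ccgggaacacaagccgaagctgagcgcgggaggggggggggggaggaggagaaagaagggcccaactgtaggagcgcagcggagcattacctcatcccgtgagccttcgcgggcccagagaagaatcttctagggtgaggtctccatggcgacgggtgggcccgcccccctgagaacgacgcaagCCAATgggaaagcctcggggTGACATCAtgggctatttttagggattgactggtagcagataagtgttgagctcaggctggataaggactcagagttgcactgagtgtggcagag
The promoter of Jun is shown because its level differed most between the mice. Its Jun-type site TGACATCA, which JUN and ATF2 dimers are known to bind, lies at -45 to -38, and CCAAT lies at -65 to -61. Jun was the only 1 of the 9 genes with a promoter sequence to hold TGACATCA, and 3.62% of 32851 promoter windows of the same length in the RefSeq table hold it.

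Junb, a JUN gene that in many settings opposes Jun, was at 7.14, 7.21 and 7.40 in mice 92, 103 and 106, a mean of 7.25 ± 0.14 (SD, n = 3). It was the only gene of the 8 above background that was highest in mouse 106, where Fos, Fosb and Jun were lowest. The range of Junb between mice was 0.26, and a link between Junb and Jun was not tested. Jund, the JUN gene that is transcribed steadily in resting cells, was at 9.56, 9.72 and 9.71, a mean of 9.66 ± 0.09 (SD, n = 3). Mice 103 and 106 lay within 0.01 of each other and mouse 92 was 0.16 below mouse 103. Jund read above every one of the 1207 nasal receptor genes on all 3 arrays.

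The BATF genes had the same order of mice. Batf, which is needed for TH17 and effector CD8 T cell programmes, was at 7.17, 7.48 and 7.32 in mice 92, 103 and 106, a mean of 7.32 ± 0.16 (SD, n = 3). Batf3, best known for the development of cross-presenting dendritic cells, was at 7.26, 7.55 and 7.43, a mean of 7.42 ± 0.15 (SD, n = 3). Both were lowest in mouse 92 and highest in mouse 103, by 0.31 for Batf and 0.29 for Batf3. The mean over 14 measured markers of macrophages and dendritic cells was 7.08, 7.65 and 7.33, also lowest in mouse 92 and highest in mouse 103. Of these markers 11 were above background on all arrays, and 6 of the 11 had this order of mice themselves. The part of those cells in the level of Batf3 was not tested.

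Atf3, a stress-induced bZIP gene whose protein pairs with JUN, was at 5.79, 5.79 and 5.85, with a mean of 5.81 ± 0.04 (SD, n = 3), and lay 0.12, 0.31 and 0.15 below the threshold on the arrays of mice 92, 103 and 106. Its 3 values were higher than those of 91.6% to 93.5% of the nasal receptor genes, and a level of Atf3 was not told apart from background in any of the mice. The promoter of Atf3 is shown as that of an immediate early gene which stayed at background.
Atf3 (chr1:191183284-191183583, minus strand, GRCm38.p6): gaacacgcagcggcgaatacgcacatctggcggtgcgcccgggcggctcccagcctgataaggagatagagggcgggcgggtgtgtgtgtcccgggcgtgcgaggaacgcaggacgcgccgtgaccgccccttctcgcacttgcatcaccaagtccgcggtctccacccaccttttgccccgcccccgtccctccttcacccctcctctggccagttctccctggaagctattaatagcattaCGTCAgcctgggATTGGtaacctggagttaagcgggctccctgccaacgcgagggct
The CRE core is on the reverse strand at -7 to -3, where it reads CGTCA, and the CCAAT box, read as ATTGG, lies at 6 to 10 after the start.

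RefSeq promoter sequences were found for 9 of the 10 genes, and Fosl1 is named only. The CRE core TGACG was found in 5 of the 9 windows (Atf3, Batf, Fos, Fosb and Junb) and in 20.8% of all 32851 windows, on either strand. The full CRE TGACGTCA was found in 0 of 9 (1.79% of all windows), the AP-1 site TGACTCA in 0 of 9 (5.20%) and the CArG box, which SRF binds, in 0 of 9 (1.63%). The windows begin 250 bases before the start. Sites farther upstream, a CArG box among them, were not searched, so these counts do not show that a gene lacks such a site. The GC box GGGCGG was found in 7 of 9 windows (35.7% of all), TATAAA in 2 of 9 (13.6%) and CCAAT in 3 of 9 (37.4%). The CRE core is part of the full CRE, so these can overlap. Median GC content was 64.7% over the 9 windows and 52.7% over all windows. Batf and Fos lie on chromosome 12 with 1 protein-coding gene between them, Jdp2, itself a bZIP gene whose protein represses AP-1. Batf3 and Atf3 lie on chromosome 1 with 1 protein-coding gene between them, Fam71a. Within these pairs of near neighbours, the range between mice was 0.06 for Fos and 0.31 for Batf, and Batf3 was above background on every array and Atf3 on none.

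Whether the spread of any of these genes between mice exceeded that of genes at a similar level was tested with limma across 13314 genes above background on at least 1 array. Of the 8 AP-1 and BATF genes tested, 0 passed at a Benjamini-Hochberg adjusted p under 0.05, beside 30 genes, 0.225%, of all those tested. At an unadjusted p under 0.05 limma called 1 of the 8, Jun, where 4.84% of all genes tested passed. Jun had a limma p of 0.00535 and an adjusted p of 0.457, so its spread did not pass over all genes. The 30 genes that passed had mice at least 1.45 log2 units apart, a distance that no AP-1 or BATF gene reached, and missing the threshold does not show that the levels were equal. The next smallest p was 0.255, for Fosl2 (limma adjusted p = 0.996), and Fos had a p of 0.964 (limma adjusted p = 0.998). None of the 8 genes had mice at least 1 log2 unit apart, as 0.751% of all genes tested did, and Jun fell just short with 0.98. The median SD between mice was 0.15 for the 8 genes and 0.13 for all genes tested. Mouse 92 lay between the others for Jun, and without it the limma adjusted p was 0.00836, which compares 2 single arrays and rests on infinite prior degrees of freedom. Without mouse 103 or mouse 106 it was 0.721 and 0.997.

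**Figure D2:**
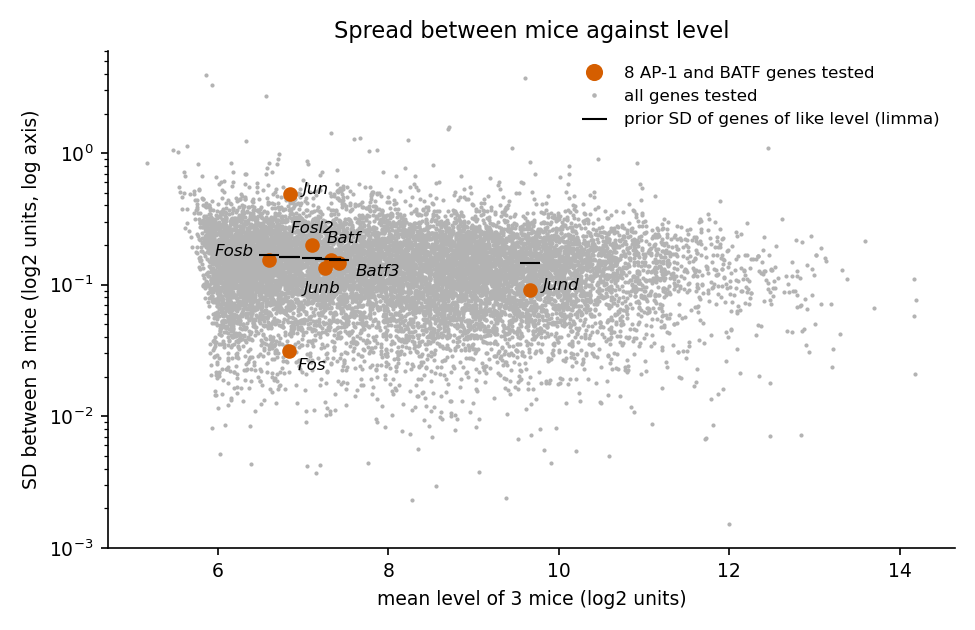
SD between the 3 mice (log2 units, log axis) against mean level (log2 units) for the 8 AP-1 and BATF genes tested, in orange, and for all 13314 genes tested, in grey; black bars mark the SD that limma gives for genes of the level of each of the 8. Jun, with an SD of 0.49, lies above its bar and Fos, with 0.03, below it.

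Most of the genes above background read highest on the array of mouse 103. Of the 8, 7 were highest in mouse 103, 1 (Junb) in mouse 106 and 0 in mouse 92, where 39.1%, 23.5% and 37.4% of all genes tested were. After cyclic loess normalisation 5 of the 8 were highest in mouse 103, beside 38.1% of all genes tested, and after quantile normalisation 7 were, beside 45.9%. Lowest values fell in mouse 92 for 5 genes (Fosl2, Junb, Jund, Batf and Batf3) and in mouse 106 for 3 (Fos, Fosb and Jun). Of all genes tested, 35.1% were lowest in mouse 92 and 36.6% in mouse 106. Mouse 92 is also the one set apart by its Xist level, and the part of sex in these values was not tested. The median deviation from the mean of the mice over the 8 genes was -0.11 in mouse 92, 0.14 in mouse 103 and 0.00485 in mouse 106, and over all genes tested it was 0.0021, 0.02 and -0.02. The array of mouse 103 is also the one whose identifier stands apart from those of mice 92 and 106. It also had the highest background threshold, 6.10, against the lowest of 5.91 for mouse 92. Read as distance above the threshold of each array, Fosb, Jun, Batf and Batf3 were highest in mouse 103. By that distance Fosl2, Junb and Jund were highest in mouse 106 and Fos in mouse 92. No share over all genes tested was computed for these distances, so this split cannot be read against one. The share of 39.1% was for levels over all genes tested, not over genes matched for level. The part of the array and its background in these values was not tested.

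**Figure D3:**
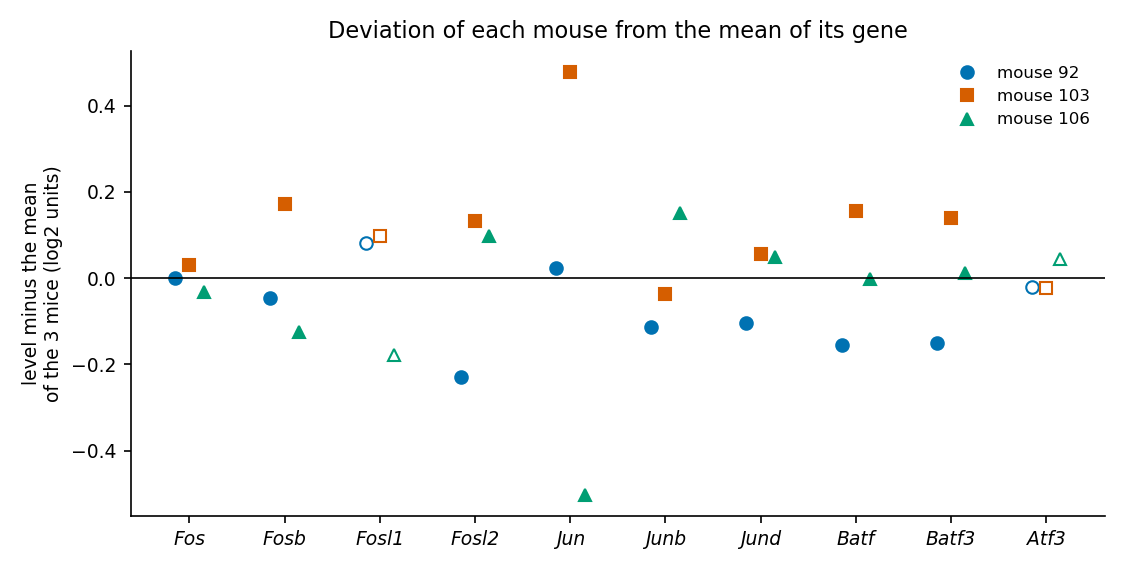
Level of each gene in each wt mouse minus its mean over the 3 mice (log2 units); filled symbols are genes above background on all arrays and open symbols are Fosl1 and Atf3, which were not. Mouse 103 is highest for 7 of the 8 filled genes, and Jun spans from -0.50 in mouse 106 to 0.48 in mouse 103.

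The order of mouse 92 lowest, mouse 106 between and mouse 103 highest was shared by 4 of the 8 genes, Fosl2, Jund, Batf and Batf3, and by 22.2% of all genes tested. Mice 103 and 106 were close for Jund (9.718 and 9.711) and Fosl2 (7.232 and 7.197). After cyclic loess normalisation Fosl2 was at 7.193 and 7.198 and no longer had this order. In the deposited values the order 92, 106, 103 held for 11 of 11 neutrophil genes, 7 of 9 B cell genes, 6 of 11 macrophage and dendritic cell genes and 3 of 4 erythroid genes. Of these lists limma called 6 neutrophil genes, 1 B cell gene and 1 erythroid gene. Among the called genes Mmp8, a neutrophil collagenase gene, was above background on 1 array and Cr2 on 2, so both entered the test through the mice where they were high. Above background on all arrays were 7 of the 11 neutrophil genes tested and 7 of the 9 B cell genes tested. The others could enter through the mice where they were high, and the order was not counted without them. The neutrophil granule gene Ngp was at 6.88, 9.63 and 9.61 in mice 92, 103 and 106 (limma adjusted p = 0.000236). The haem synthesis gene Alas2 was at 8.18, 10.14 and 10.03 (limma adjusted p = 0.00293), and the complement receptor gene Cr2 of B cells was at 5.74, 7.32 and 7.01 (limma adjusted p = 0.0484). Thymic epithelial genes had means over 10 genes of 6.85, 7.04 and 6.86, and fibroblast and endothelial genes of 6.56, 6.74 and 6.53, both highest in mouse 103. Only 7 and 5 of the 10 genes of these lists were above background on all arrays. Of those tested, 5 of 9 and 5 of 7 were highest in mouse 103, beside 39.1% of all genes tested. Of the genes with the highest means in these lists, Cldn4 and Pecam1 were highest in mouse 92, Ly75 in mouse 106 and Col1a1 in mouse 103. By contrast, 9 of 11 thymocyte markers were highest in mouse 92, with a mean of 12.14, 11.98 and 12.04. The part of these other cells in the levels of the AP-1 and BATF genes was not tested.

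**Figure D4:**
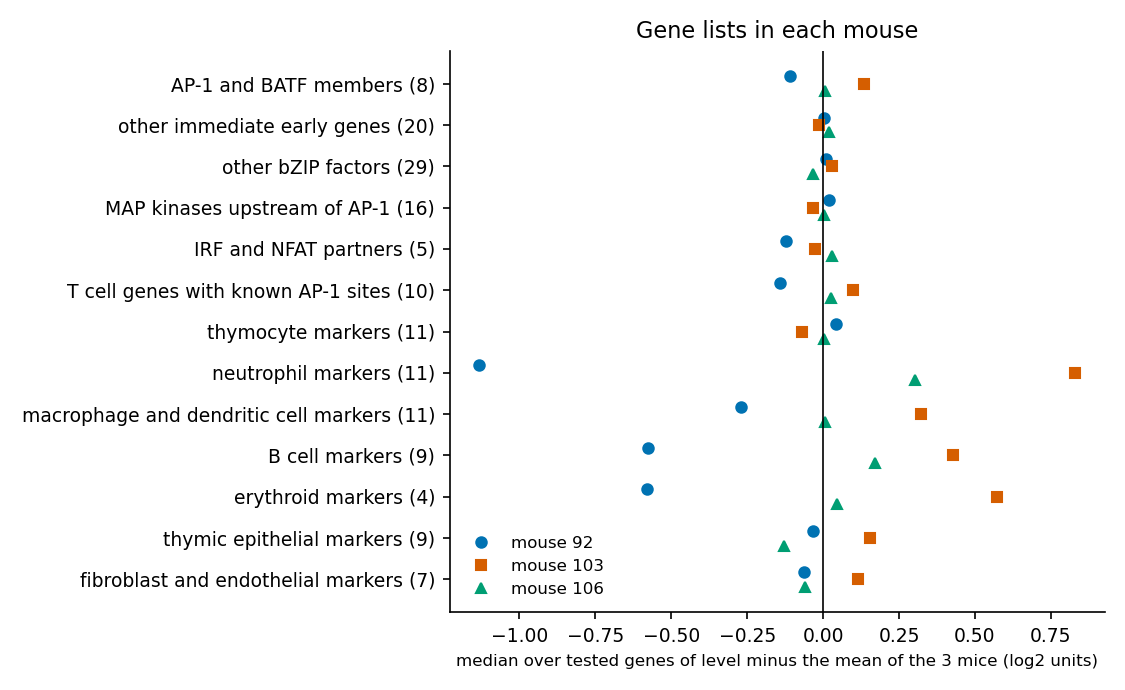
Median deviation from the mean of the 3 mice (log2 units) for each gene list, with the number of genes tested in brackets and 1 symbol for each wt mouse. The AP-1 and BATF genes lie at -0.11, 0.14 and 0.00485 in mice 92, 103 and 106, the other immediate early genes lie within 0.02 of 0, and the neutrophil genes span from -1.13 in mouse 92 to 0.83 in mouse 103.

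Other immediate early genes gave no call either. Of 23 measured, 19 were above background on all arrays, and of 20 tested limma called 0, with 0 at an unadjusted p under 0.05. Their median SD was 0.09, against 0.13 for all genes tested. Nr4a1, an orphan receptor gene induced by T cell receptor signals, was at 10.36, 10.38 and 10.42 in mice 92, 103 and 106. Dusp5, a phosphatase gene that limits ERK, had a range of 0.05 between the mice around a mean of 8.97. The widest were Zfp36, whose protein destabilises AU-rich mRNAs, at 9.68, 9.19 and 9.49, and Zfp36l1 of the same family at 8.69, 9.02 and 9.17.

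Among the partners and relatives, 28 of 31 other bZIP genes were above background on all arrays, and limma called 0 of 29 tested, with 0 at an unadjusted p under 0.05. Cebpa, a myeloid factor gene, was at 6.10, 6.65 and 6.33 and Nfil3 at 6.96, 7.07 and 6.59, the widest of the list, while Creb1, whose protein binds the CRE, was at 11.29, 11.25 and 11.26. The IRF and NFAT partner genes were above background in 5 of 5 cases. Irf4 was at 7.27, 7.13 and 7.08 and Irf8 at 7.81, 8.26 and 8.08. Nfatc3 was at 11.82, 11.74 and 11.80 and Nfatc2 at 7.92, 8.01 and 8.27. None of the 5 had a limma p under 0.05 without adjustment.

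Upstream, 16 of 17 measured MAP kinase genes and 4 of 4 measured SRF and ternary complex factor genes were above background, and limma called 0 of 16 and 0 of 4, with 0 at an unadjusted p under 0.05 in either list. Srf, which drives immediate early genes through the serum response element, was at 9.09, 9.12 and 9.17, and Elk4, an ETS partner of SRF, at 10.47, 10.10 and 10.32. Map3k7, which encodes TAK1, was at 10.06, 10.13 and 10.02. Of the genes for turnover of AP-1 protein and mRNA 12 of 12 were above background, and limma called 0 of 12, with 1 at an unadjusted p under 0.05. That gene was Cops5, also known as JAB1, a JUN-binding subunit of the COP9 signalosome, at 8.94, 8.43 and 8.30. Over all genes its adjusted p in limma was 0.870. Cops5 and Jun were both lowest in mouse 106, while Cops5 was highest in mouse 92 and Jun in mouse 103. A link between Cops5 and Jun was not tested.

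Of 15 T cell genes with known AP-1 sites, 9 were above background on all arrays, and the cytokine genes Il2, Il4, Il5, Ifng and Csf2 and the death ligand gene Fasl were not. Limma called 0 of 10 tested, with 1 at an unadjusted p under 0.05. That gene was Il2ra, the IL-2 receptor alpha chain gene, at 7.77, 8.49 and 8.79 in mice 92, 103 and 106. Over all genes its adjusted p in limma was 0.291. Cd69, an early activation marker that also marks selected thymocytes, was at 9.98, 9.48 and 9.50, highest in mouse 92 where 0 of the 8 AP-1 and BATF genes above background were highest.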

How the data were processed

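Thymocyte RNA of 3 wild-type mice was isolated with Trizol and carried a biotin label, per the labels. The deposited values are log2 levels of 35557 probe sets; the log2 scale was read from their range. The authors used Affymetrix Expression Console, per the submitters' processing notes; its version, summarisation and normalisation are not stated in the labels. Gene names came from the platform annotation, in which 21789 probe sets had 1 symbol, 1621 had several and 12147 had none and stay unnamed. Probe sets of a gene were averaged. The spread between mice was tested in R 4.3.3 with limma 3.58.1, using an intercept, eBayes with a trended prior (10.4 degrees of freedom), and each variance over its prior as an upper-tail F ratio, with Benjamini-Hochberg adjustment over 13314 genes. No label says how the samples were taken, so the p-values cover only the spread of these samples, which may be technical, and 3 arrays limit precision. The RNA integrity number of 3 in the labels of all samples is low, and its part in the levels near or below background was not tested. Every AP-1 and BATF gene was named. From each pathway list the 2 genes with the largest and the 2 with the smallest SD among those above background could be named, from each cell list the 2 with the highest mean, and any gene limma called. Jdp2, Fam71a, Xist and the T cell genes not above background were named after their values were seen. The genes and lists were chosen with earlier results of these data known. Promoters are from the RefSeq table of GRCm38.p6; none of its coordinates apply to the probes.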

Additional observations from a re-analysis of the deposited data

How the results depend on the processing

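The count of AP-1 and BATF genes above background was 8, and 5 with the 99th percentile of the nasal receptors as threshold, where Fosl2, Junb, Jund, Batf and Batf3 were above on each array (46.8% of all named genes); with the 90th percentile it was 9 (69.3%). In 8 alternatives to the prior, filter, normalisation or probe sets, limma called 0 genes of the set at the adjusted threshold and 1, Jun, without adjustment; the adjusted p of Jun ran from 0.319 to 0.687. With 3 arrays these repeated misses say nothing about whether the levels are stable. Leaving out 1 mouse gave 0 to 1 genes of the set, and 48 to 84 genes in all. Over all genes the limma count was 30, and 18 after quantile and 18 after cyclic loess normalisation; the cause was not tested. After quantile normalisation 1 gene, Jun, had mice at least 1 log2 unit apart (1.02). The count highest in mouse 103, examined after seeing the data, was 5 to 7 of 8 over 3 normalisations. Of all genes tested 38.1% to 45.9% were highest there. Over all 10 genes the count was 8, through Fosl1, which was below the threshold on every array. Fosl1 read 5.74 in mouse 103 and 5.73 in mouse 92, and no share over all named genes was computed for that count. Mean levels moved by less than 1 SD after quantile and cyclic loess normalisation. Median normalisation leaves the mean of a gene unchanged, and leaving out 1 of 3 mice cannot move it by 1 SD. Those outcomes were fixed in advance. The range between mice moved by at least 1 SD in 3 of 30 normalisation alternatives, for Jund and Atf3. It did so in 10 of 30 alternatives without 1 mouse, where a range can only narrow or stay the same. The prior degrees of freedom were infinite in limma without mouse 92 or mouse 106. No paired analysis was possible because there was 1 group. Levels near the receptor threshold, as for Fos, Fosb and Jun, limit what these arrays show.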
